A study of Arabidopsis thaliana with 6 samples.

Results

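The ATG genes of Arabidopsis thaliana encode the proteins that build autophagosomes, and 8 of them were followed in sorted cells of the lateral root cap: ATG3, ATG8B, ATG8C, ATG8D, ATG8E, ATG8F, ATG8G and ATG8H. They were chosen by name, as all probe sets whose only gene symbol in the platform annotation begins with ATG and a number and is not a locus name. Each gene had 1 probe set, so 8 of the 13350 genes named by 1 symbol, locus names included, and 8 of 22746 probe sets in all, are described.

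In autophagy a double membrane closes around cytoplasm, worn organelles or protein aggregates and delivers them to the vacuole for breakdown. ATG8 is a small ubiquitin-like protein that is joined to the lipid phosphatidylethanolamine on that membrane, where it helps the membrane grow and binds cargo receptors. The protease ATG4 exposes its terminal glycine, the E1-like enzyme ATG7 activates it, and the E2-like enzyme ATG3 passes it to the lipid. Plants carry a family of ATG8 genes where yeast has a single one. ATG8H and ATG8I form a separate branch of that family, whose proteins end in the glycine without needing ATG4. The lateral root cap sheathes the root tip and is shed or lost by programmed cell death as the root grows.

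RNA was taken from fluorescence-sorted cells of J2632-UAS::ARR1ΔDDK-GR seedlings (ecotype C24) that were 5 days old. The enhancer trap J2632 marks the cells and drives the transgene, which fuses a form of the cytokinin-response transcription factor ARR1 that lacks its restraining domain to the glucocorticoid receptor, so that dexamethasone lets the protein enter the nucleus. Untreated seedlings, seedlings after 1 h of dexamethasone and seedlings after 4 h gave 2 biological replicates each, from protoplasts or tissue of roots per the labels, 1 Affymetrix ATH1 array per replicate and 6 in all. All 3 groups carried the transgene and none was given dexamethasone without it, so the effects of the drug, of the time elapsed and of the induced protein cannot be told apart.

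The arrays exceeded background on 58.1% to 67.8% of probe sets, where background is the 95th percentile of 27 bacterial control probe sets on the same array. Untreated replicate 1 correlated with the other 5 arrays at 0.953 to 0.957, close to the 0.954 to 0.958 of the 1 h arrays with the 4 h arrays, while the 4 dexamethasone arrays correlated with untreated replicate 2 at 0.958 to 0.969. The 2 replicates of a group correlated at 0.957 untreated, 0.958 at 1 h and 0.972 at 4 h. With 1 h replicate 2, untreated replicate 2 correlated at 0.969, more than 1 h replicate 1 did. The ratio of 3' to 5' signal of the GAPDH control ranged from 3.11 to 4.65. Of 6 root cap markers 2 could be measured under the annotation, AT1G65570 and scpl48, and both exceeded background on all 6 arrays. The 5 measurable markers of other root cell types, of 15 listed, exceeded it on at most 3 arrays, and 3 of them on none. Of 4 stele markers 0 could be measured, and cortex, endodermis and quiescent centre had 1 each. GSO1, the endodermis marker, exceeded background on untreated replicate 2 and on both 4 h arrays. The summed intensity of the root cap markers was 4494 and 4612 in untreated cells, 5471 to 6705 at 1 h and 3358 to 3395 at 4 h, while that of the other markers stayed between 107.04 and 135.4. Most of the root cap sum was scpl48, which read 3852 and 3841 in untreated cells, 5155 and 3932 at 1 h, and 2380 and 2689 at 4 h. At 4 h the 2 markers differed from untreated in opposite directions, scpl48 by -0.62 (SE 0.24, limma adjusted p = 0.518) and AT1G65570 by 0.27 (SE 0.26, adjusted p = 0.823) on the log2 scale used below, so the lower sum at 4 h came from scpl48. AT1G65570 read 642.6 and 770.8 in untreated cells, and 1550 and 1539 at 1 h. Its 1 h difference from untreated was 1.15 (SE 0.26, limma adjusted p = 0.759), and that of scpl48 was 0.23 (SE 0.24, adjusted p = 0.945). The part of these markers in the results was not tested.

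All 8 ATG genes were detected on all 6 arrays. The weakest margins were those of ATG8G and ATG8B, whose lowest signals were 1.49 and 1.55 times the background of their array, while the lowest signal of ATG8H was 34.1 times its background. Levels below are log2 of the deposited intensity plus 16, quantile normalized, with n = 2 arrays per group. No gene of the family passed the test in any comparison, and on this scale no difference between group means was larger than 0.57 in size. Levels of different genes are not compared, because each probe set binds with its own strength.

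**Figure D1:**
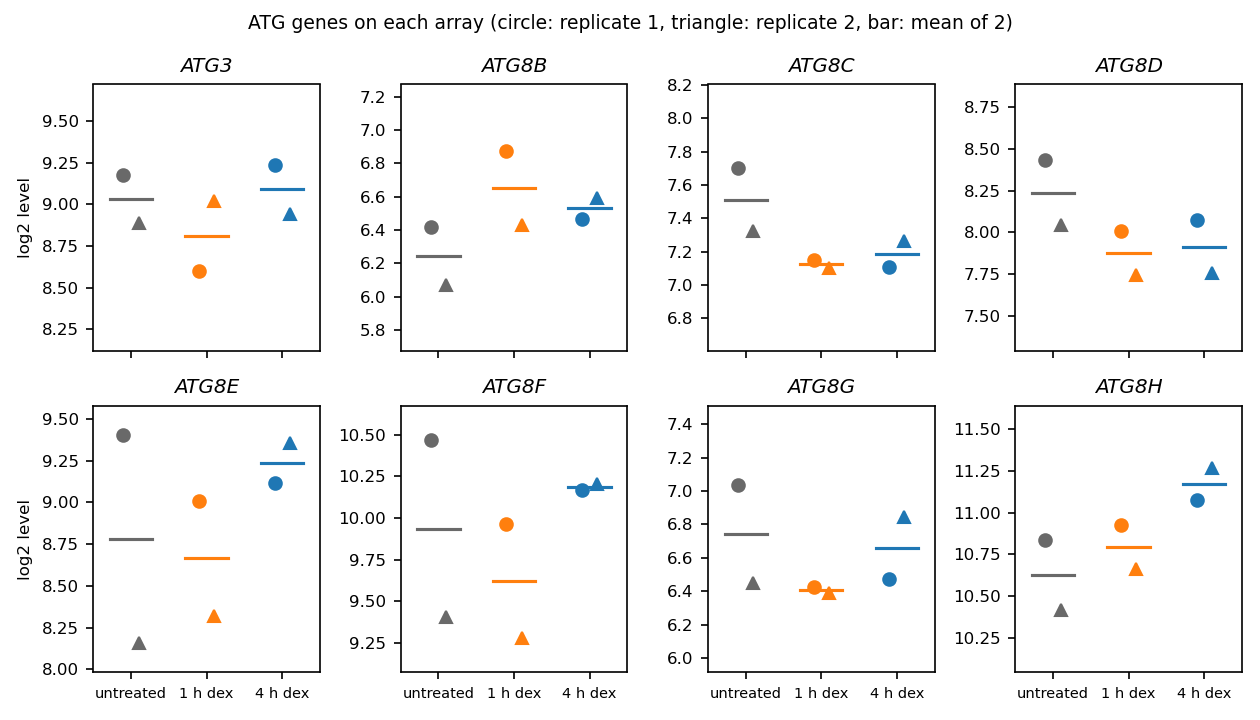
Log2 level (vertical axis, log2 of intensity plus 16, quantile normalized) of each ATG gene in untreated cells and after 1 h and 4 h of dexamethasone (horizontal axis); circles are replicate 1, triangles replicate 2, bars the mean of 2 arrays, and every panel spans the same log2 height. ATG8E and ATG8F have untreated replicates 1.25 and 1.06 apart, and ATG8H has both 4 h arrays above all others.

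The conjugating enzyme gene ATG3 had no separate groups in any comparison. Its deposited intensities were 569.8 and 469.1 in untreated cells, 364.6 and 506.0 at 1 h, and 579.4 and 470.6 at 4 h. The lowest array was 1 h replicate 1 and the highest 4 h replicate 1. Its log2 levels were 9.03 ± 0.20 (SD, n = 2) untreated, 8.81 ± 0.29 at 1 h and 9.09 ± 0.21 at 4 h. The difference from untreated was -0.22 (SE 0.26, limma adjusted p = 0.953) at 1 h and 0.06 (SE 0.26, adjusted p = 0.972) at 4 h. The 95% interval at 4 h ran from -0.58 to 0.69. With 1 array left out, the 1 h difference ran from -0.43 to -0.014, the value without 1 h replicate 1.

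ATG8H, of the branch that needs no processing by ATG4, had the smallest p of the family at 4 h. It read 1847 and 1335 in untreated cells, 1915 and 1609 at 1 h, and 2163 and 2459 at 4 h. Both 4 h arrays lay above the 4 others, while the untreated and 1 h arrays overlapped. Its log2 level was 10.63 ± 0.30 untreated, 10.79 ± 0.19 at 1 h and 11.17 ± 0.14 at 4 h. The difference between 4 h and untreated was 0.55 (SE 0.26), or 1.46-fold, with an interval from -0.07 to 1.16, an unadjusted p of 0.0742 and a limma adjusted p of 0.600. Against 1 h the 4 h difference was 0.38 (SE 0.26, adjusted p = 0.701), and 1 h differed from untreated by 0.17 (SE 0.26, adjusted p = 0.969). Without untreated replicate 1 the difference of 4 h from untreated was 0.75, and without untreated replicate 2 it was 0.34. In order of level the times ran untreated, 1 h, 4 h, and no difference between neighbouring times passed the test.

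ATG8E and ATG8F, both of the larger branch of the family, had the widest spread and varied together. ATG8E read 674.9 and 280.1 in untreated cells, 493.4 and 305.0 at 1 h, and 535.4 and 639.4 at 4 h. ATG8F read 1408 and 667.6 in untreated cells, 969.1 and 605.7 at 1 h, and 1146 and 1164 at 4 h. In both genes untreated replicate 1 was the highest array, replicate 2 was low in the untreated and in the 1 h group, and the 4 h arrays lay close together and above both 1 h arrays. The log2 level of ATG8E was 8.78 ± 0.88 untreated, 8.67 ± 0.49 at 1 h and 9.24 ± 0.17 at 4 h. That of ATG8F was 9.94 ± 0.75, 9.62 ± 0.48 and 10.19 ± 0.02.

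Between 1 h and 4 h the log2 difference was 0.57 (SE 0.45, limma adjusted p = 0.747) for ATG8E and 0.56 (SE 0.41, adjusted p = 0.720) for ATG8F, the largest of the 8 genes in that comparison. Between untreated and 4 h it was 0.45 (SE 0.45, adjusted p = 0.834) and 0.25 (SE 0.41, adjusted p = 0.908). At 1 h it was -0.12 (SE 0.45) and -0.31 (SE 0.41). The 2 comparisons with untreated cells turned on which untreated array was used. Without untreated replicate 1 the 4 h difference was 1.07 for ATG8E and 0.78 for ATG8F. Without untreated replicate 2 it was -0.17 and -0.29. At 1 h the corresponding values were 0.50 and 0.21 without untreated replicate 1, and -0.75 and -0.85 without untreated replicate 2. None passed the test. The comparison of 4 h with 1 h kept its direction in both genes without any 1 array, between 0.23 and 0.91 for ATG8E and between 0.22 and 0.91 for ATG8F.

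ATG8C and ATG8D, also of the larger branch, lay lower after dexamethasone than before it. ATG8C read 184.6 and 148.5 in untreated cells, 128.6 and 125.1 at 1 h, and 120.6 and 136.7 at 4 h. Both untreated arrays were above all 4 others, so neither time overlapped with untreated cells. Its log2 level was 7.51 ± 0.27 untreated, 7.13 ± 0.03 at 1 h and 7.19 ± 0.11 at 4 h. The difference was -0.38 (SE 0.24, limma adjusted p = 0.918) at 1 h and -0.32 (SE 0.24, adjusted p = 0.758) at 4 h, with intervals from -0.95 to 0.19 and from -0.90 to 0.25. Without untreated replicate 1, which was the higher one, the values were -0.19 and -0.13, and without untreated replicate 2 they were -0.57 and -0.51.

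ATG8D read 322.2 and 256.9 in untreated cells, 240.1 and 200.4 at 1 h, and 251.6 and 197.9 at 4 h. At 1 h the groups were just apart, by 8.01 against 8.04 on the log2 scale, and at 4 h they overlapped on that scale, by 8.07 against 8.04, although the intensities themselves did not. Its level was 8.24 ± 0.27 untreated, 7.87 ± 0.19 at 1 h and 7.91 ± 0.23 at 4 h. The differences were -0.36 (SE 0.26, limma adjusted p = 0.928) and -0.32 (SE 0.26, adjusted p = 0.782). Without untreated replicate 1 they were -0.17 and -0.13, and without untreated replicate 2 they were -0.56 and -0.52. Between 1 h and 4 h ATG8C and ATG8D differed by 0.06 (SE 0.24) and 0.04 (SE 0.26).

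ATG8B and ATG8G were the closest to background, and a fold change of such genes is understated on a log2 scale with 16 added. ATG8B read 63.2 and 47.2 in untreated cells, 105.0 and 73.0 at 1 h, and 72.0 and 80.6 at 4 h. All dexamethasone arrays were above both untreated ones, at 1 h only by 6.43 against 6.42 on the log2 scale. Background was 43.2 and 47.1 on the 1 h arrays, against 32.5 and 29.1 on the untreated ones. As a multiple of its array's background, ATG8B was 1.95 and 1.62 untreated and 2.43 and 1.55 at 1 h, which overlapped. At 4 h it was 2.16 and 2.52. The part of background in these differences was not tested. The log2 level of ATG8B was 6.25 ± 0.25 untreated, 6.65 ± 0.31 at 1 h and 6.53 ± 0.09 at 4 h. The difference of 0.41 at 1 h (SE 0.26, limma adjusted p = 0.923) was the largest above 0 of the 8 genes at that time, and at 4 h it was 0.28 (SE 0.26, adjusted p = 0.815). With 1 array left out, the 1 h value ran from 0.19 without 1 h replicate 1 to 0.63 without 1 h replicate 2, and the 4 h value from 0.11 without untreated replicate 2 to 0.46 without untreated replicate 1.

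ATG8G read 108.3 and 70.1 in untreated cells, 75.4 and 70.4 at 1 h, and 72.1 and 98.8 at 4 h. In these intensities untreated and 1 h cells overlapped, and after normalization the 1 h arrays (6.42 and 6.39) lay just below both untreated arrays (7.04 and 6.45). The 4 h and 1 h cells likewise overlapped in intensity and were just apart after normalization, by 6.47 against 6.42. Its log2 level was 6.74 ± 0.42 untreated, 6.41 ± 0.03 at 1 h and 6.66 ± 0.26 at 4 h. The difference was -0.34 (SE 0.28, limma adjusted p = 0.940) at 1 h and -0.08 (SE 0.28, adjusted p = 0.957) at 4 h. Without untreated replicate 1 the 1 h value was -0.042 and the 4 h value 0.21, and without untreated replicate 2 they were -0.62 and -0.38.

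**Figure D2:**
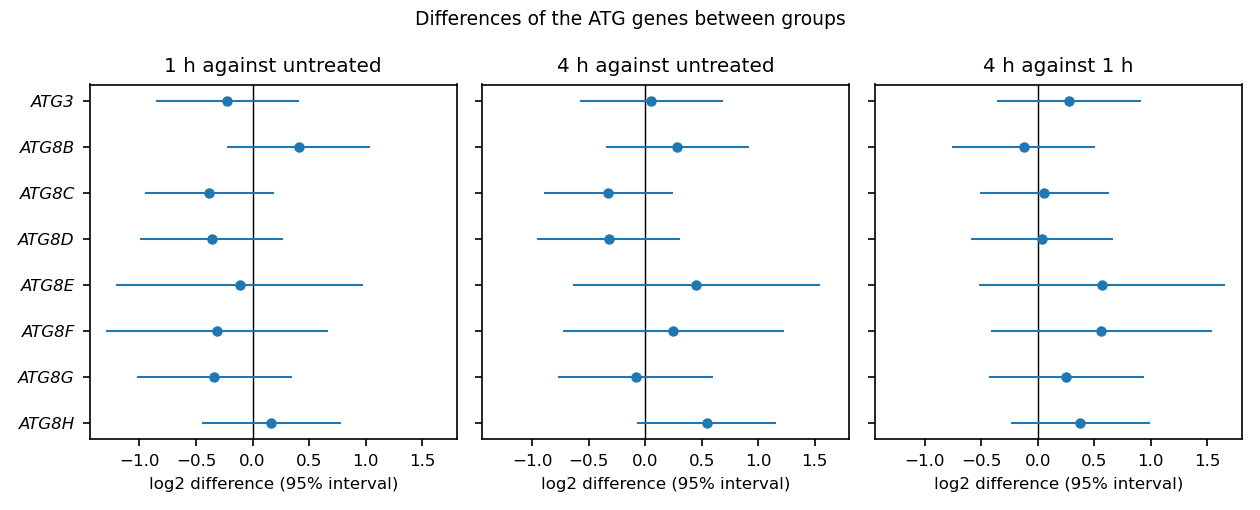
Log2 difference between groups (horizontal axis, point) with its 95% interval (bar) from the limma fit to 6 arrays, for the 8 ATG genes (vertical axis) in each of 3 comparisons. Every interval includes 0, and that of ATG8H at 4 h against untreated, from -0.07 to 1.16, comes closest to leaving it out.

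Counted over the family, 2 of 8 genes were higher and 6 lower at 1 h than in untreated cells, with a median log2 difference of -0.27. Over all probe sets 49.6% were higher and the median was 0.00. At 4 h 5 were higher and 3 lower, against 49.0% higher over all probe sets, with a median of 0.15 against -0.01. Between 1 h and 4 h 7 were higher at 4 h and 1, ATG8B, was lower, against 49.6% higher over all probe sets, with a median of 0.27 against 0.00. Both summaries against untreated cells depended on single arrays. At 1 h the median became 0.09 with 4 genes higher without untreated replicate 1, -0.56 with 1 higher without untreated replicate 2, and -0.10 with 4 higher without 1 h replicate 2. At 4 h it became 0.34 with 6 higher without untreated replicate 1, and -0.23 with 2 higher without untreated replicate 2. The 3 comparisons share arrays, so these counts are not independent of each other. A bulk sample cannot tell fewer cells with a transcript from less of it per cell.

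In the limma fit 0 of 8 genes passed an adjusted p under 0.05 at 1 h, where 0.00% of all probe sets did, and 0 of 8 had an unadjusted p under 0.05, against 5.78%. At 4 h 0 of 8 passed against 0.00440%, and 0 of 8 had an unadjusted p under 0.05 against 9.08%. Between 1 h and 4 h 0 of 8 passed against 0.0220%, and 0 of 8 had an unadjusted p under 0.05 against 9.24%. The smallest difference that passed anywhere in the table was 4.69 on the log2 scale at 4 h against untreated and 2.86 at 4 h against 1 h. The differences of the ATG genes reached at most 0.57 in size, and no probe set of the table passed with a difference of that size.

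The groups did not overlap for 4 of 8 genes at 1 h against untreated, where 31.1% of all probe sets did not. ATG8B was the 1 gene higher without overlap (15.5% of all probe sets), and ATG8C, ATG8D and ATG8G were the 3 lower (15.7%). At 4 h against untreated 3 of 8 genes did not overlap against 40.6%, with ATG8B and ATG8H higher (20.0%) and ATG8C lower (20.6%). At 4 h against 1 h 4 of 8 did not overlap against 43.8%: ATG8E, ATG8F, ATG8G and ATG8H were higher (21.8%) and 0 were lower (22.1%). In the whole table higher and lower were about equally common. The split among these few genes was less even in all 3 comparisons, and this was not tested. For ATG8G at 1 h against untreated and at 4 h against 1 h, whether the gene is counted rests on the normalization. The same holds for ATG8D at 4 h against untreated.

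The replicates of a group differed in the same direction for most of the family. On untreated replicate 1 all 8 genes were higher than on untreated replicate 2, by 0.29 for ATG3 to 1.25 for ATG8E and by a median of 0.41, whereas 50.8% of all probe sets were higher there, with a median of 0.01. At 1 h 7 of 8 were higher on replicate 1, ATG3 being the exception at -0.42, against 49.6% of all probe sets. At 4 h only ATG3 and ATG8D were, against 49.6%. The untreated gaps of ATG8E and ATG8F were larger than 95.9% and 92.1% of the gaps of all probe sets on these arrays. ATG8C, ATG8D, ATG8E, ATG8F and ATG8G were all at their highest on untreated replicate 1, an array that held the highest value of 20.8% of all probe sets. ATG8C, ATG8D, ATG8F and ATG8G were at their lowest on 1 h replicate 2, against 16.7%. That array had the highest background, 47.1, and the lowest share of probe sets above it, 58.1%. The part of this in the low values was not tested.

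**Figure D3:**
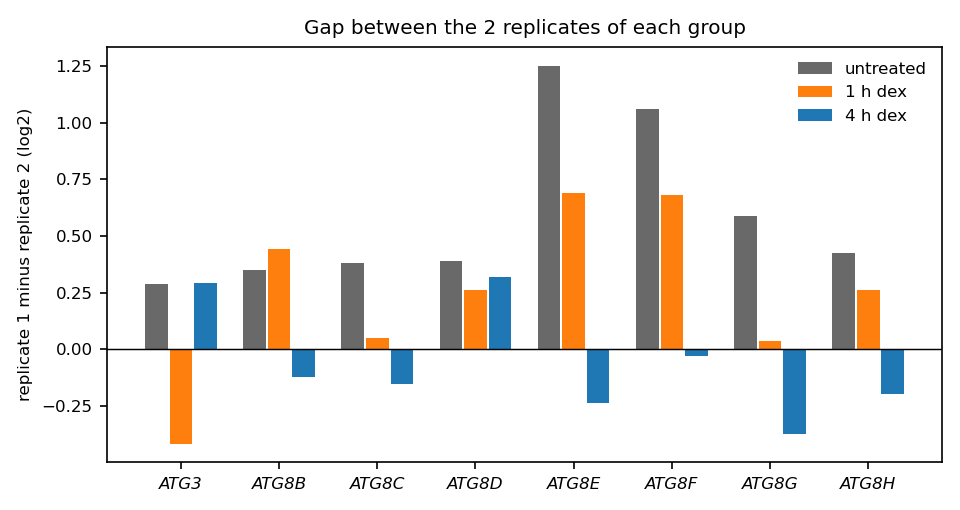
Difference between replicate 1 and replicate 2 of each group (vertical axis, log2) for the 8 ATG genes (horizontal axis), with 1 bar per group. All 8 untreated bars are above 0, up to 1.25 for ATG8E, and 6 of the 8 bars of the 4 h group are below 0.

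Across the 6 arrays the log2 levels of ATG8E and ATG8F had a Pearson r of 0.97 and a Spearman rho of 0.94, the highest of the 28 pairs of ATG genes. Next came ATG8E with ATG8H (0.84) and ATG8C with ATG8G (0.84). The median over the pairs was 0.39 and 23 pairs were above 0. The lowest value was -0.45, for ATG3 with ATG8B. All pairs share the same 6 arrays and so the same differences between arrays, and the values describe these arrays.

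Within an array the gap between 2 genes is free of a shift common to both. ATG8H and ATG8C, a pair chosen after the values were seen, lay further apart after dexamethasone: relative to the untreated mean, the log2 gap of ATG8H over ATG8C was 0.02 and -0.02 in untreated cells, 0.66 and 0.44 at 1 h, and 0.85 and 0.89 at 4 h. The gap of ATG8H over ATG8D was 0.02 and -0.02, 0.53 and 0.53, and 0.61 and 1.13. In both pairs the untreated arrays were close together although each gene by itself differed between them by about 0.4, and all dexamethasone arrays lay above them. Because the pairs were picked for this pattern, no test is given. The gap of ATG8E over ATG8F stayed between -0.10 and 0.31 on all 6 arrays.

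The rest of the pathway was read from a list of 42 loci of the core machinery, of which 20 could be measured under the annotation, the 8 ATG genes among them. APG8A and APG8H, which RefSeq also lists as ATG8A and ATG8I, complete the ATG8 family of 9. APG8A read 1240 and 777.5 in untreated cells, 1035 and 800.6 at 1 h, and 870.4 and 1053 at 4 h. APG8H read 1643 and 1146, then 1445 and 954.3, then 1230 and 1445. Both had untreated replicate 1 as their highest array, and their groups overlapped in every comparison. Their log2 differences from untreated were -0.07 (SE 0.31) and -0.21 (SE 0.31) at 1 h, and -0.01 (SE 0.31) and -0.05 (SE 0.31) at 4 h. With them, 9 of 9 ATG8 genes were higher on replicate 1 than on replicate 2 in the untreated group and 9 of 9 at 1 h, but 1 of 9 at 4 h. ATG8H and ATG8I, the members of the separate branch, thus differed from untreated at 4 h by 0.55 and -0.05, and the difference between these was not tested.

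Of the other 12 core genes 0 passed in any of the 3 comparisons, and 1 had an unadjusted p under 0.05, the locus AT3G53930 at 4 h against untreated. It read 387.5 and 352.6 in untreated cells, 570.1 and 388.8 at 1 h, and 560.3 and 608.5 at 4 h. Both 4 h arrays lay above both untreated ones. The log2 difference was 0.67 (SE 0.27, unadjusted p = 0.0429, limma adjusted p = 0.529) at 4 h and 0.36 (SE 0.27) at 1 h, and 0.31 (SE 0.27) between the times. AT1G77890 differed from untreated by 0.37 (SE 0.23) at 1 h and 0.38 (SE 0.23) at 4 h, AT2G32760 by 0.39 (SE 0.25) at 1 h, and AT3G61960 by 0.25 (SE 0.33) between 1 h and 4 h. These loci carry no symbol beyond the locus name in the tables used and are given by locus. AT5G66930, listed in RefSeq as ATG101, a subunit of the kinase complex that starts autophagy, differed by -0.12 (SE 0.30) and -0.10 (SE 0.30).

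Over all 20 core genes 10 were higher at 1 h (median 0.00), 14 at 4 h (median 0.22 against -0.01 over all probe sets) and 17 at 4 h against 1 h (median 0.12 against 0.00). Among the 12 without an ATG symbol the counts were 8, 9 and 10. Of the 20 genes, 18 exceeded background on all 6 arrays. AT1G49180 did so on 3 arrays, none of them untreated, and AT3G18770 on 4. These 2 loci are counted as higher at 1 h and at 4 h, with 4 h differences of 0.60 (SE 0.35) and 0.59 (SE 0.65). On replicate 1 of the untreated group 8 of these 12 were higher than on replicate 2, as were 8 at 1 h and 2 at 4 h.

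**Figure D4:**
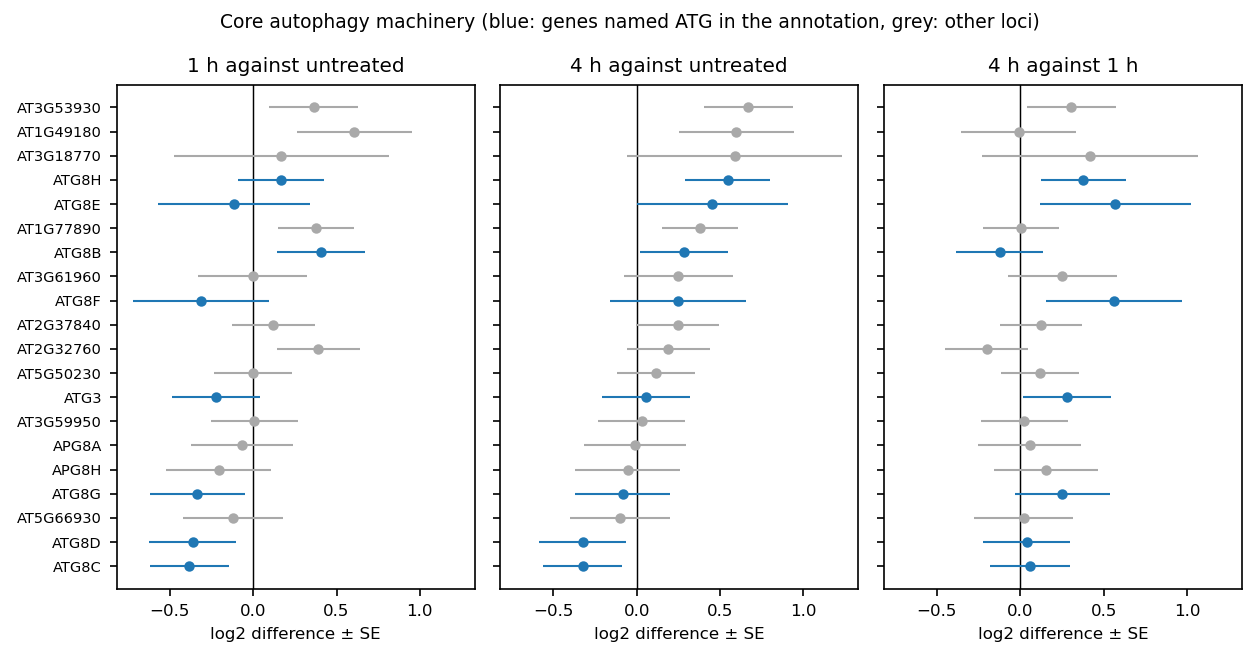
Log2 difference ± SE (horizontal axis) of the 20 measurable core autophagy genes (vertical axis, ordered by the difference between 4 h and untreated) in 3 comparisons, with the 8 genes named ATG in blue and other loci in grey. The 4 h differences from untreated run from -0.32 for ATG8C to 0.67 for AT3G53930, and none passed the test. AT1G49180 exceeded background on 3 arrays and AT3G18770 on 4, the other genes on all 6.

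Genes around the core were few under this annotation, and 0 of them passed. Of 9 subunits of the TOR and SnRK1 nutrient kinases, which repress and promote autophagy, 4 were measured. RAPTOR1, a subunit of the TOR complex, differed by 0.15 (SE 0.22) at 1 h, 0.22 (SE 0.22) at 4 h and 0.06 (SE 0.22) between the times. RAPTOR2 differed by -0.22, -0.80 and -0.58 (SE 0.45 each) in these comparisons, but exceeded background on only 2 arrays. AKINBETA1, a regulatory subunit of SnRK1, differed by -0.21 (SE 0.27) at 1 h and -0.23 (SE 0.27) at 4 h. AT4G16360, listed as KINbeta2, differed by -0.24 (SE 0.29) at 4 h against untreated and -0.23 (SE 0.29) against 1 h. Of 9 vacuolar genes 2 were measured: GAMMA-VPE, a vacuolar protease, differed by 0.01, 0.25 and 0.24 (SE 0.29 each) in the 3 comparisons, and ALPHA-VPE by 0.43, -0.05 and -0.47 (SE 0.37 each). Of 10 receptors and adaptors 1 was measured, AT4G34660, at 0.24, 0.18 and -0.06 (SE 0.22 each). No entry of the list of sugar starvation and senescence genes could be measured.

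The genes whose pattern was most like that of ATG8E, the ATG gene with the widest range of group means (0.57), were AT1G79030, SWEET2, AT5G13240, AT1G08310 and SIS. Their Pearson r with ATG8E over the 6 arrays was between 0.978 and 0.983, the highest of 3851 candidates above background on every array and with a range of at least 0.5 times that of ATG8E, and ATG8F, which as an ATG gene was not a candidate, had 0.97. SWEET2, a sugar transporter of the vacuolar membrane, measured 9.46 and 8.50 in untreated cells, 9.32 and 8.52 at 1 h, and 9.38 and 9.44 at 4 h. As in ATG8E, replicate 2 was the low array of both the untreated and the 1 h group. With 6 arrays 85 of the candidates had an r over 0.9.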

How the data were processed

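Per the labels, biotin was introduced in 2 cycles and each sample was hybridised to 1 ATH1 array. The deposited table holds 1 linear intensity per probe set and array. The summarisation software is not given in the sources used here. Every column had the same mean, 250.03, once 2% was trimmed from both ends, so the authors' values had been scaled before deposit. Of 22810 rows, 64 are controls.

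From there, log2 of the intensity plus 16 was quantile normalized, since column medians spanned 0.215. limma 3.58.1 in R 4.3.3 fitted a mean per group to all 6 arrays; p-values are two-sided and Benjamini-Hochberg adjusted over 22746 probe sets. With 2 arrays per group the number of arrays limits the precision. The labels call replicates biological without naming their source.

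Symbols come from the platform annotation, loci and synonyms from RefSeq. Of the probe sets, 13513 carry 1 symbol, locus names included, 503 carry several and 8730 are not listed. A locus was matched for 13436. All ATG genes were named. From each other list, genes past the threshold were named, or else the 2 largest differences detected in both groups, with some other genes and comparisons added. The members and lists were chosen with earlier results of these data known. Sequences were not used here.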

Additional observations from a re-analysis of the deposited data

How the results depend on the processing

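No ATG gene passed under any of 15 alternatives: pseudocounts of 1 and 64, the deposited scaling alone, median centring, a prior variance fitted along the signal, only probe sets above background on at least 2 arrays, a fit on the 2 groups compared, the replicate block, leaving out each of the 6 arrays, and array weights, which were added after seeing the data. The smallest adjusted p was 0.375, for ATG8H at 4 h against untreated with that prior variance. Of 360 values of the ATG genes 344 kept their direction and 16 reversed. Median centring, which moved the median of all probe sets at 1 h to -0.10, reversed ATG3 at 4 h against untreated (-0.053), RAPTOR1 (-0.026) and GAMMA-VPE (-0.18) at 1 h and AT4G34660 at 4 h against 1 h (0.0092); the deposited scaling reversed GAMMA-VPE at 1 h (-0.028). The cause was not tested. It also took the median of the 8 ATG genes at 4 h against untreated from 0.15 to 0.06, with 4 higher in place of 5. The other reversals came from leaving out 1 array. At 1 h the values without 1 array ran from -0.75 to 0.50 for ATG8E, -0.85 to 0.21 for ATG8F, -0.046 to 0.38 for ATG8H, -0.48 to 0.054 for AKINBETA1 and -0.29 to 0.31 for GAMMA-VPE. At 4 h against untreated they ran from -0.090 to 0.20 for ATG3, -0.17 to 1.07 for ATG8E, -0.29 to 0.78 for ATG8F, -0.38 to 0.21 for ATG8G, -0.50 to 0.041 for AKINBETA1, -0.46 to 0.37 for ALPHA-VPE, -0.050 to 0.55 for GAMMA-VPE and -0.53 to 0.049 for AT4G16360. At 4 h against 1 h they ran from -0.35 to 0.10 for ATG8B, -0.018 to 0.14 for ATG8C, -0.12 to 0.20 for ATG8D, -0.044 to 0.17 for RAPTOR1, -0.12 to 0.0072 for AT4G34660 and -0.52 to 0.059 for AT4G16360. ATG3, ATG8B, ATG8C, ATG8D and ATG8G at 1 h, ATG8B, ATG8C, ATG8D and ATG8H at 4 h against untreated, and ATG8E, ATG8F, ATG8G, ATG8H and ATG3 at 4 h against 1 h, kept their direction under every alternative.

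The number of probe sets past the threshold was 0 at 1 h under every alternative. At 4 h against untreated and at 4 h against 1 h, where it was 1 and 5, it was 0 and 0 with a pseudocount of 1, 108 and 42 with a pseudocount of 64, 123 and 53 with that prior variance, 8 and 17 with the filter, 0 and 0 in fits on 2 groups, and 0 and 0 without any 1 array. With array weights 8 passed at 4 h against 1 h. With the replicate block 0 passed at 4 h against untreated, 5 at 4 h against 1 h and no ATG gene in any comparison. The replicate numbers share no stated source. The differences between replicates correlated at 0.12 for untreated with 1 h, -0.02 for untreated with 4 h and -0.04 for 1 h with 4 h. Such values over all probe sets cannot tell whether same-numbered arrays share a culture or day, and the main fit did not pair them.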
